A study of Homo sapiens with 46 samples.

Results

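The 10 genes described here encode the core of the human mRNA export machinery: NXF1, NXT1, ALYREF, DDX39A, DDX39B, THOC1, THOC2, THOC3, THOC5 and THOC6. They were taken by gene name from the 4 count tables that each rest on 1 cell type's own transcript assembly, both as sums over a gene and as single isoforms, and are 10 of the 10699 genes named in all 4 tables. RNA had been sequenced from subcellular fractions of H1, an established human pluripotent stem cell line (hPSC), and of 3 cell types derived from it: ectoderm, endoderm and mesoderm. Endoderm was made with WNT3A and Activin A. Mesoderm was made with Activin A on the first day and then VEGF, BMP4 and bFGF. Ectoderm was made with A83-01, PNU-74654 and Dorsomorphin. All cell types were split into cytoplasm, nucleus, nucleoplasm (the soluble nuclear part) and chromatin, with α-amanitin, an inhibitor of RNA polymerase II, in the lysis buffers. The 46 libraries form 16 groups, 15 with 3 libraries each and mesoderm nucleoplasm with 1. All come from 1 cell line.

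NXF1 is the main receptor that carries mature mRNA through the nuclear pore, and it works as a pair with the small protein NXT1. NXF1 is loaded onto mRNA by the TREX complex, in which a DEAD-box helicase (DDX39B, also called UAP56, or its close relative DDX39A) joins the adaptor ALYREF to the THO complex, built from THOC1, THOC2, THOC3, THOC5, THOC6 and THOC7. The NXF1 gene is itself a textbook case of intron retention: an isoform that keeps intron 10 carries a constitutive transport element, an RNA structure to which NXF1 protein binds, and can leave the nucleus unspliced.

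The tables held 2 NXF1 isoforms in every cell type, NXF1-201 and NXF1-211. NXF1 lies on the minus strand of chromosome 11 at chr11:62792123-62806302 (GRCh38, GENCODE v29). NXF1-201 (ENST00000294172) has 21 exons, 2346 bases and 619 codons, from 62792126 to 62805492. NXF1-211 (ENST00000531709) has 20 exons and 4128 bases, from 62792123 to 62805470, because it keeps intron 10, which spans 1801 bases from 62798576 to 62800376. Its reading frame meets a stop codon at 62800322 to 62800324, after 52 bases of the intron, which leaves 356 codons. The 2 sequences below show this point of divergence on the minus strand, 5′ to 3′; both begin with the last 30 bases of exon 10. In NXF1-211 (chr11:62800322-62800406) the capitals mark the first 2 bases of the intron and the stop codon. In NXF1-201 (from chr11:62798539-62800406, with the intron removed) they mark the 37 bases of the next exon.
NXF1-211: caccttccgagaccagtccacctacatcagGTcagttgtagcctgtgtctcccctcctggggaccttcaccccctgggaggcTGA
NXF1-201: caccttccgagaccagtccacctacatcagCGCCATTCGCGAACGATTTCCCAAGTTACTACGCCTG

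Several libraries went against their label or stood apart. Library totals ran from 4990408 to 21298678 counts. The ectoderm libraries labelled nucleus held as much cytoplasmic marker RNA (39890 to 51910 CPM summed, CPM being counts scaled to the library total) as the ectoderm cytoplasm (41490 to 43480 CPM), so for ectoderm the chromatin and cytoplasm libraries are compared as well. The summed CPM of a list of 5 nuclear RNAs was 117.9 to 494.0 in the libraries labelled nucleus and 1409 to 2537 in cytoplasm in ectoderm, and 122.6 to 496.2 against 514.2 to 711.8 in endoderm, so it was lower in nucleus in both. In hPSC the sums overlapped (850.8 to 1098 against 886.7 to 902.6), and in mesoderm they were higher in nucleus (1269 to 1843 against 615.8 to 761.6). The ectoderm cytoplasm sums also overlapped those of ectoderm nucleoplasm (2161 to 2490 CPM) and chromatin (1191 to 1503 CPM). Cytoplasmic markers were lower in nucleus than in cytoplasm in hPSC, endoderm and mesoderm. The nucleus libraries carry the code Nei in the tables, which was matched to the nucleus label because the other codes match the other 3 fractions. The single mesoderm nucleoplasm library is numbered 3 in the table and 1 in its label. Mitochondrial transcripts made 7.91% to 16.1% of counts in the nucleus and nucleoplasm libraries of hPSC, ectoderm and endoderm and 0.399% to 1.58% in their cytoplasm, while in mesoderm the cytoplasm held more (5.84% to 7.46%) than the nucleus (1.11% to 1.36%). Chromatin replicate 3 of hPSC and of mesoderm, nucleus replicate 2 of ectoderm and nucleus replicate 1 of endoderm were least like their groups. Of the marker lists, 8 of 8 hPSC genes were in the hPSC table, 7 of 8 neural genes in the ectoderm table and 8 of 8 endoderm genes in the endoderm table. Of the hPSC list, 7 of 8 genes were also named in ectoderm and endoderm and 5 of 8 in mesoderm. Their sums in cytoplasm were 6268 to 6808 CPM in hPSC and 4680 to 5200 CPM in endoderm. In mesoderm and ectoderm they were 2769 to 2886 and 2180 to 2789 CPM. The neural genes summed to 687.8 to 795.4 CPM in ectoderm cytoplasm and 57.74 to 67.83 CPM in hPSC cytoplasm. Group means in ectoderm were 1.187 to 4.643 CPM for HESX1 and 0.2564 to 0.5501 CPM for ZIC1. The mesoderm table held 5 of 10 mesoderm markers, with TBXT at or below 0.19 CPM and MESP1, MIXL1 and KDR not in the table. HAPLN1 had group means of 201.8 to 1086 CPM in mesoderm and 0.35 to 1.4 CPM in hPSC, and HAND1 had 30.63 to 131.9 CPM in mesoderm and is not in the hPSC table. Both were also present in endoderm (20.67 to 158.8 CPM for HAPLN1 and 18.34 to 58.13 CPM for HAND1), and HAPLN1 also in ectoderm (36.32 to 103.5 CPM). Of the same 10 markers, 8 were named in endoderm, 5 in hPSC and 4 in ectoderm. Endoderm means were 1.542 to 4.939 CPM for TBXT, 17.89 to 218 CPM for KDR and 5.355 to 79.47 CPM for PDGFRA. For PDGFRA the mesoderm means were 2.981 to 10.59 CPM. The number of markers named thus did not set mesoderm apart from endoderm.

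The intron-retaining NXF1-211 had its highest mean share of NXF1 counts on chromatin in each cell type, and its lowest in cytoplasm except in mesoderm, where the single nucleoplasm library was lower. In hPSC it held 19.8%, 16.5% and 16.9% of NXF1 counts in the 3 cytoplasm libraries, 31.0%, 35.3% and 34.0% in nucleoplasm, 55.6%, 56.4% and 46.1% in nucleus and 50.5%, 49.7% and 68.8% on chromatin. The cytoplasm values lay below every value of the other fractions, and the highest chromatin value came from replicate 3, which stood apart. In endoderm the shares were 27.0%, 24.7% and 22.3% in cytoplasm, 51.4%, 55.5% and 58.1% in nucleoplasm, 63.0%, 61.7% and 76.5% in nucleus and 81.7%, 87.0% and 82.8% on chromatin. Endoderm thus showed the widest spread of the 4 cell types, with no overlap between any pair of its fractions. Mesoderm gave 45.4%, 45.5% and 40.0% in cytoplasm, 65.3%, 65.0% and 58.9% in nucleus and 59.6%, 81.3% and 69.8% on chromatin. Its nucleus and chromatin overlapped, and its single nucleoplasm library held 18.3% (Wilson 95% interval 16.1% to 20.8%), below every other mesoderm library. Ectoderm gave 42.8%, 42.2% and 47.0% in cytoplasm, 52.6%, 56.2% and 57.0% in nucleoplasm and 69.4%, 72.3% and 73.6% on chromatin. The ectoderm libraries labelled nucleus ranged over 58.6%, 27.4% and 49.2% and overlapped the cytoplasm.

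**Figure D1:**
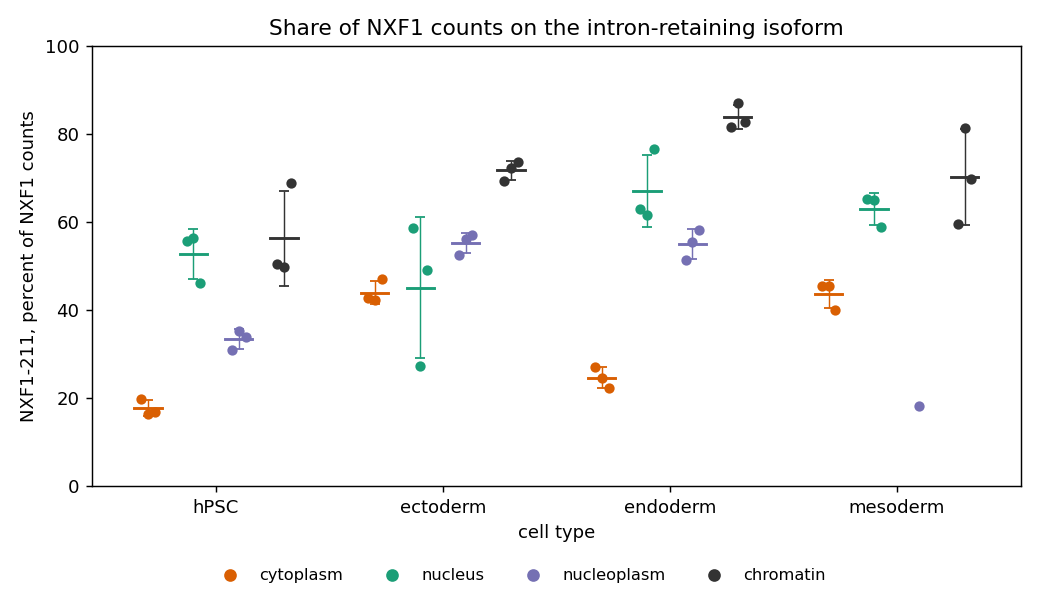
Percent of NXF1 counts assigned to NXF1-211 (vertical axis) in each of the 46 libraries, by cell type and coloured by fraction; points are libraries, bars the mean and whiskers the SD of 3 libraries. Chromatin values (49.7% to 87.0%) lie above the cytoplasm values of the same cell type in all 4 cell types, and mesoderm nucleoplasm is 1 library at 18.3%.

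Between 522 and 2192 NXF1 counts stood behind each share; the intervals cover counting error only, since reads copied by PCR are not independent molecules. A share of counts is larger than a share of molecules here, as the longer isoform yields more reads: NXF1-211 had 1.87 to 1.93 times as many counts per TPM as NXF1-201. By TPM, which corrects for length, the mean share of NXF1-211 was 10.1% in hPSC cytoplasm and 40.7% on hPSC chromatin, 14.6% and 73.1% in endoderm, 28.9% and 55.8% in mesoderm, and 29.3% and 57.1% in ectoderm. Reads from intron 10 of transcripts not yet spliced cannot be told apart from NXF1-211, and the division of reads between isoforms is an estimate. The difference in mean count share between chromatin and cytoplasm had p = 0.1 in each cell type by a two-sided exact permutation test (adjusted p = 0.118 over 20 such comparisons), the smallest p that 3 libraries against 3 allow.

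In CPM it was the intron-retaining isoform that varied between fractions, while the spliced isoform stayed within a narrower range. In endoderm NXF1-211 stood at 17.54, 14.72 and 14.35 CPM in cytoplasm, 49.55, 67.46 and 77.38 CPM in nucleus, 21.62, 21.21 and 23.19 CPM in nucleoplasm and 122.7, 159.5 and 154.5 CPM on chromatin. NXF1-201 stood at 47.39, 44.82 and 50.01 CPM in endoderm cytoplasm and 27.53, 23.93 and 32.08 CPM on chromatin, without overlap and in the opposite order. Cytoplasm against nucleus, NXF1-211 fell by 2.522 on the log2 scale in endoderm (SE 0.144, adjusted p = 7.91e-07), while NXF1-201 differed by 0.101 (adjusted p = 0.741). In hPSC NXF1-211 fell by 1.565 (SE 0.271, adjusted p = 0.00114) and NXF1-201 rose by 0.794 (SE 0.121, adjusted p = 0.000533), and the gene sum differed by only -0.041 (adjusted p = 0.832). The hPSC values behind this were 13.09, 9.624 and 10.55 CPM of NXF1-211 in cytoplasm against 31.81, 35.86 and 28.6 CPM in nucleus. The share itself passed the test in hPSC (adjusted p = 0.00222) and endoderm (adjusted p = 0.00266), with edgeR's diffSpliceDGE.

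**Figure D2:**
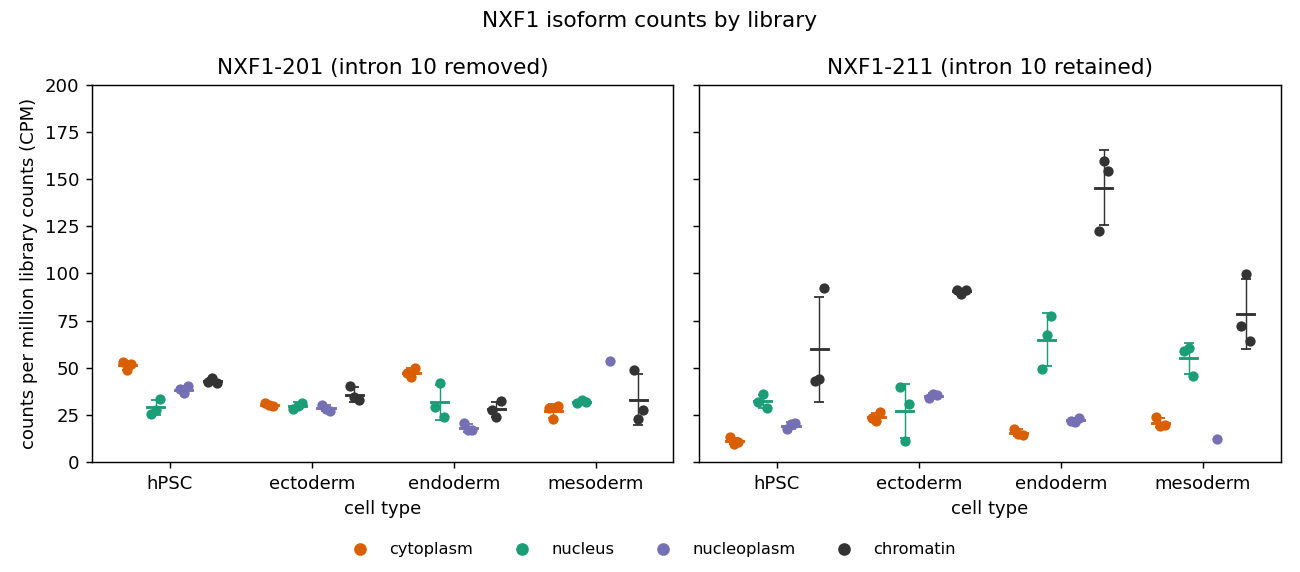
CPM (vertical axis) of the spliced NXF1-201 (left) and the intron-retaining NXF1-211 (right) by cell type and fraction; points are libraries, bars the mean and whiskers the SD of 3 libraries. NXF1-211 reaches 122.7 to 159.5 CPM on endoderm chromatin, while NXF1-201 there lies between 23.93 and 32.08 CPM.

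In mesoderm NXF1-211 fell by 1.068 from nucleus to cytoplasm (SE 0.222, adjusted p = 0.00839), with a share that passed limma-voom's diffSplice (adjusted p = 0.0242) and not diffSpliceDGE (adjusted p = 0.698). In ectoderm, where the nucleus label is in doubt, NXF1-211 differed by -0.453 (adjusted p = 0.304); without nucleus replicate 2 the difference was -0.758 (adjusted p = 0.00155). Against nucleoplasm, chromatin held more NXF1-211 in hPSC (1.348, SE 0.266), ectoderm (0.983, SE 0.263) and endoderm (1.958, SE 0.141), with adjusted p = 0.015, 0.0336 and 7.22e-06. Without hPSC nucleoplasm replicate 1 or 3 the hPSC value was 1.283 or 1.35 and no longer called (adjusted p = 0.0653 and 0.0612), and without any 1 of its 6 libraries the ectoderm value ran from 0.939 to 0.996 and was not called (adjusted p = 0.0841 to 0.108). For the share, limma-voom's diffSplice called all 3 cell types (adjusted p = 0.0143, 0.0255 and 1.34e-05), and diffSpliceDGE called only endoderm, through NXF1-201 (adjusted p = 0.0197), a call that was lost without any 1 of the 6 libraries (adjusted p = 0.0546 to 0.105). NXF1-201 itself differed by -0.113, -0.056 and -0.144 in hPSC, ectoderm and endoderm and was not called (adjusted p = 0.645, 0.876 and 0.664); by TPM these values turned to 0.487, 0.764 and 0.649.

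The cytoplasmic share of NXF1-211 also differed between cell types. Each cell type has its own assembly, so assembly and cell type cannot be told apart in this comparison. Both isoforms had the same reference identifiers in every cell type and nearly the same ratio of counts per TPM in every library. The mean was 17.7% ± 1.79 (SD, n = 3) in hPSC, 24.7% ± 2.36 in endoderm, 43.6% ± 3.19 in mesoderm and 44.0% ± 2.65 in ectoderm. The hPSC libraries lay below every library of the other cell types, endoderm lay between, and mesoderm and ectoderm overlapped. On chromatin the order was 56.3% ± 10.8 in hPSC, 70.3% ± 10.8 in mesoderm, 71.8% ± 2.13 in ectoderm and 83.8% ± 2.78 in endoderm; endoderm was above all others and mesoderm overlapped both of its neighbours. Each comparison with hPSC without overlap had p = 0.1 by the exact permutation test, the smallest possible (adjusted p = 0.118). Ectoderm cytoplasm also held more of the listed nuclear RNAs (1409 to 2537 CPM summed) than hPSC cytoplasm (886.7 to 902.6 CPM). Endoderm and mesoderm cytoplasm held less (514.2 to 711.8 and 615.8 to 761.6 CPM). The part of nuclear RNA in the cytoplasmic shares was not tested.

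Summed over its isoforms, NXF1 was highest on chromatin in every cell type. The chromatin libraries held 85.39, 88.92 and 133.8 CPM in hPSC, 131.4, 123.5 and 124.0 CPM in ectoderm, 150.2, 183.4 and 186.5 CPM in endoderm and 120.6, 122.6 and 91.57 CPM in mesoderm. The cytoplasm libraries held 66.15, 58.41 and 62.3 CPM in hPSC, 54.54, 52.1 and 55.81 CPM in ectoderm, 64.92, 59.54 and 64.37 CPM in endoderm and 52.03, 41.88 and 49.46 CPM in mesoderm, with no overlap in any cell type. Chromatin was higher than cytoplasm by 0.574 (adjusted p = 0.00549), 0.902 (8.22e-06), 1.622 (3.55e-08) and 1.043 (0.000239) on the log2 scale, in the same order, and every scaling kept the direction. Against nucleoplasm chromatin was higher by 0.595 (SE 0.156) in hPSC, 0.702 (SE 0.107) in ectoderm and 1.535 (SE 0.129) in endoderm, with adjusted p = 0.0122, 0.000214 and 1.97e-07. Without hPSC chromatin replicate 3 the hPSC values were 0.364 against nucleoplasm (adjusted p = 0.0205) and 0.344 against cytoplasm (adjusted p = 0.0104); without nucleoplasm replicate 3 the former was 0.559 (adjusted p = 0.0536). A CPM is a share of its own fraction's RNA, so a higher CPM does not mean that more of the cell's NXF1 RNA lies there; in bulk RNA, fewer cells of a type and less RNA per cell cannot be told apart either.

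NXT1 (chr20:23350736-23354777, plus strand), the partner of NXF1, went the opposite way and was the member with the fewest counts. Its cytoplasm libraries held 16.81, 11.16 and 12.67 CPM in hPSC, 9.534, 10.54 and 9.797 CPM in ectoderm, 14.49, 11.62 and 14.79 CPM in endoderm and 13.61, 11.26 and 12.14 CPM in mesoderm. On chromatin they held 8.988, 6.398 and 6.937, then 7.78, 6.367 and 7.662, then 2.355, 3.924 and 4.765, then 4.208, 2.509 and 4.11 CPM, below the cytoplasm in all 4 cell types without overlap. By edgeR's quasi-likelihood test NXT1 was lower on chromatin, with log2 differences of -0.995 in hPSC (adjusted p = 0.000952), -0.782 in ectoderm (0.00676), -1.734 in endoderm (5.1e-05) and -1.975 in mesoderm (6e-05); by TPM the ectoderm difference turned to 0.347 (adjusted p = 0.126), and without ectoderm chromatin replicate 2 it was -0.633 (adjusted p = 0.0536). NXT1 has 1 isoform in each table, so its fall rests on the gene's single transcript. It overlaps AL096677.1 on the opposite strand, and the library kit does not mark strand.

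**Figure D3:**
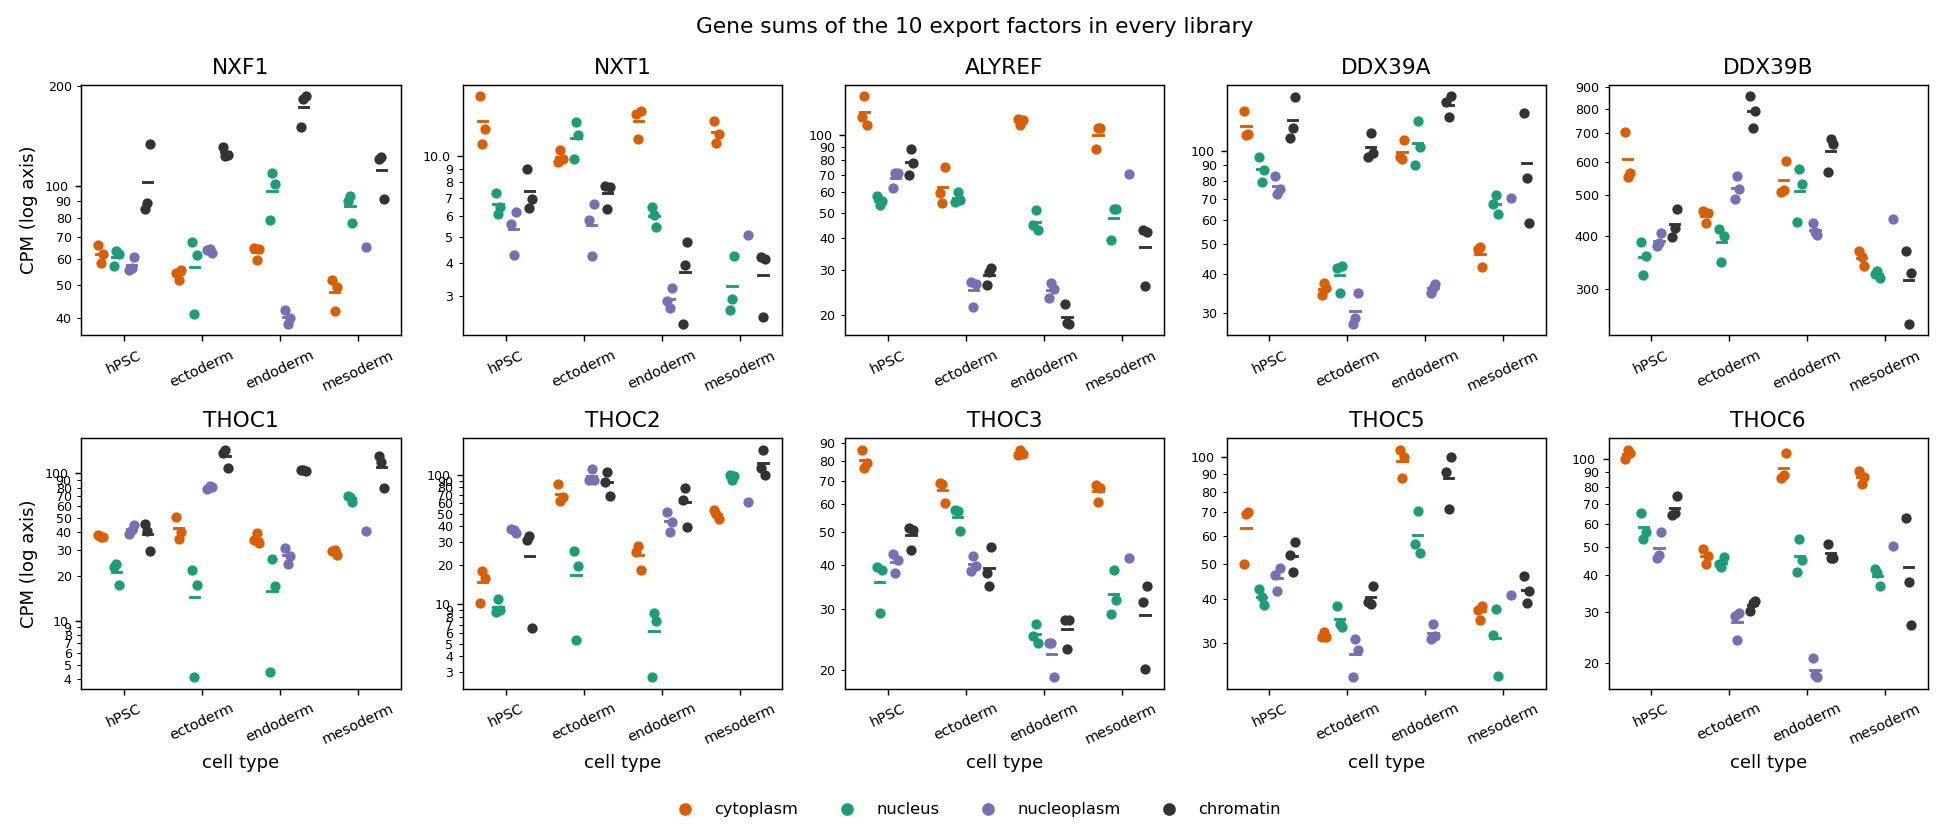
Gene sums of the 10 members in CPM (vertical axis, log scale, own range in each panel) in all 46 libraries by cell type and fraction; points are libraries and bars group means. On the count scale NXF1 is highest on chromatin in each cell type, while NXT1, ALYREF and THOC3 have chromatin points below all cytoplasm points of the same cell type. By TPM the hPSC difference of ALYREF (0.109) and THOC3 (0.02) and the ectoderm difference of NXT1 (0.347) have the other sign. Relative to the median of all genes by TPM they are -0.602, -0.691 and -0.38.

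Levels between genes are compared by TPM. DDX39B had the highest mean of the 10 genes in 16 of 16 groups (240.6 to 508.1 TPM). ALYREF (44.59 to 197.1 TPM) and DDX39A (33.73 to 191.9 TPM) followed with median ranks of 2 and 3, and NXF1 (20.61 to 82.64 TPM) had a median rank of 6. NXT1 was lowest in 10 groups (5.78 to 18.99 TPM over all groups) and THOC2 in 6 (2.303 to 46.61 TPM). Library ranges of neighbouring ranks overlapped in some groups and not in others. DDX39B did not overlap the next rank in any group.

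ALYREF (chr17:81887844-81891586, minus strand), the adaptor that hands mRNA to NXF1, had more counts in cytoplasm than on chromatin in all 4 cell types. The cytoplasm libraries held 117.5, 141.4 and 109.6 CPM in hPSC, 59.8, 54.27 and 75.29 CPM in ectoderm, 115.7, 109.3 and 114.3 CPM in endoderm and 88.43, 106.3 and 106.5 CPM in mesoderm. The endoderm chromatin libraries held 22.09, 18.61 and 18.47 CPM, and the hPSC chromatin libraries 70.26, 87.91 and 77.94 CPM. Its log2 difference, chromatin against cytoplasm, was -0.792 in hPSC (adjusted p = 9.61e-05), -1.455 in ectoderm (4.32e-06), -2.357 in endoderm (9.01e-09) and -1.646 in mesoderm (3.59e-05), with SEs of up to 0.198; by TPM the hPSC difference turned to 0.109 (adjusted p = 0.514). From nucleoplasm to chromatin it fell in endoderm (-0.925, adjusted p = 0.000193); hPSC (-0.029, adjusted p = 0.879; 0.56 by TPM) and ectoderm (-0.092, adjusted p = 0.673; 0.658 by TPM) were not called, and the difference between cell types was not tested. In mesoderm, not tested here, the chromatin libraries held 42.68, 26.0 and 41.99 CPM and the single nucleoplasm library 70.68 CPM. ALYREF overlaps ANAPC11 on the opposite strand, and the library kit does not mark strand, so reads of the pair cannot be told apart where they overlap.

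**Figure D4:**
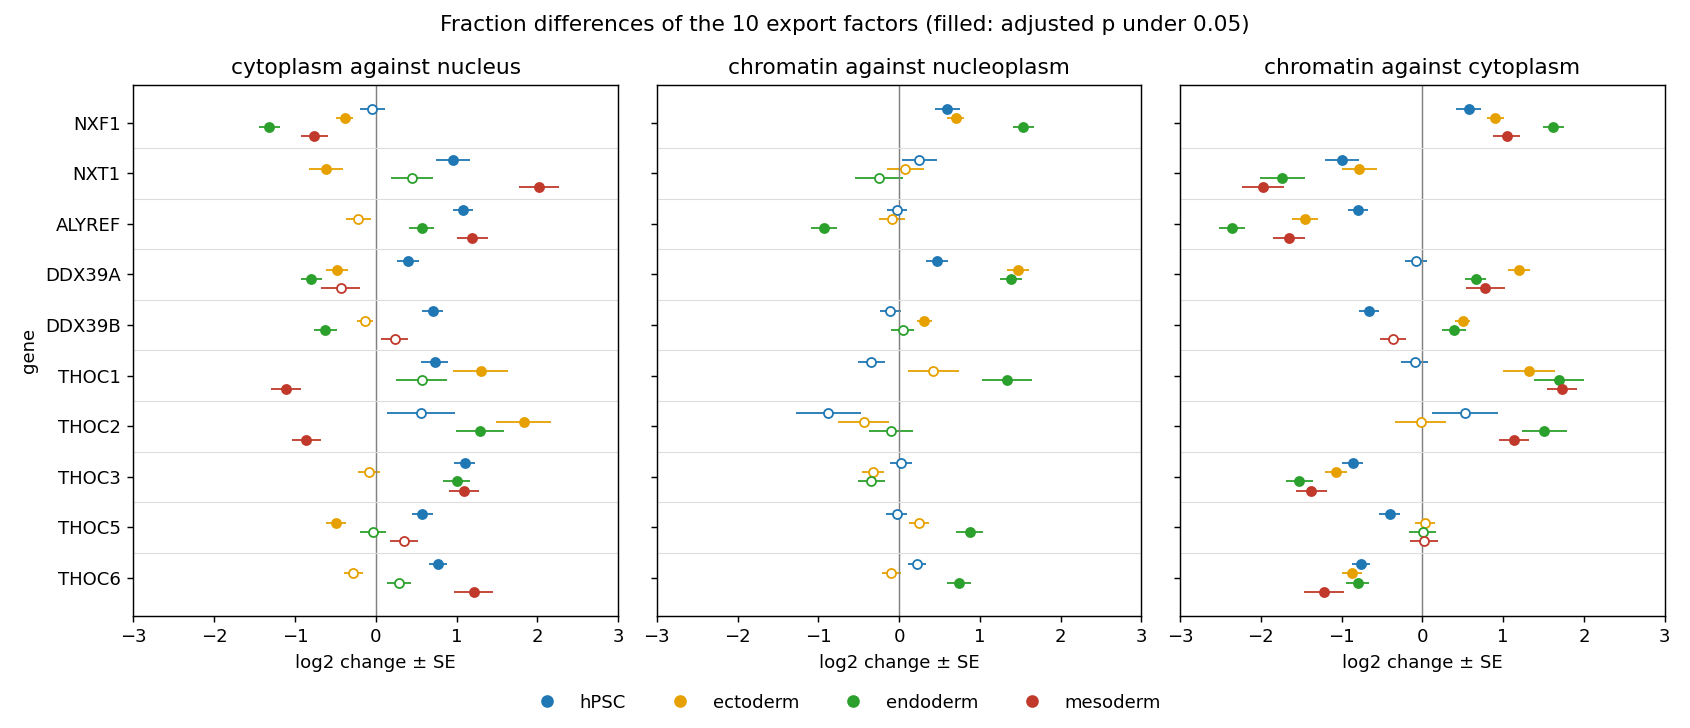
Log2 change ± SE (horizontal axis) of the 10 gene sums for cytoplasm against nucleus, chromatin against nucleoplasm and chromatin against cytoplasm, coloured by cell type; filled points passed the threshold of 0.05. NXF1 lies above 0 in every point of the chromatin panels (0.574 to 1.622), and ALYREF lies furthest below 0 in endoderm, chromatin against cytoplasm (-2.357).

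The helicases DDX39A (chr19:14408819-14419383) and DDX39B (chr6:31530219-31542448), both on the minus strand, are the RNA-dependent ATPases of TREX. DDX39A rose from nucleoplasm to chromatin by 0.473 (SE 0.135) in hPSC, 1.476 (SE 0.138) in ectoderm and 1.387 (SE 0.133) in endoderm, with adjusted p = 0.0186, 9.54e-06 and 6.85e-07, in the same direction under every scaling. The ectoderm libraries held 27.61, 28.79 and 34.64 CPM in nucleoplasm and 95.35, 114.2 and 98.75 CPM on chromatin; the endoderm libraries held 34.87, 36.09 and 37.07 against 143.5, 128.5 and 150.1 CPM. In hPSC the groups also did not overlap (72.42 to 82.95 against 109.9 to 149.3 CPM), but without nucleoplasm replicate 2 or 3 the call was lost (adjusted p = 0.0674 and 0.117). Chromatin exceeded cytoplasm for DDX39A in ectoderm (1.199, adjusted p = 5.64e-06), endoderm (0.659, adjusted p = 0.000328) and mesoderm (0.78, adjusted p = 0.0134), though in mesoderm the value was 0.414 without chromatin replicate 1 (adjusted p = 0.0648) and 0.72 without cytoplasm replicate 1 (adjusted p = 0.0502). DDX39B differed between chromatin and nucleoplasm by -0.109 in hPSC (adjusted p = 0.546), 0.314 in ectoderm (adjusted p = 0.0185; 0.0854 and 0.0559 without nucleoplasm replicate 1 and 3) and 0.044 in endoderm (adjusted p = 0.822). Chromatin against cytoplasm, DDX39B was lower in hPSC (-0.66, adjusted p = 0.000483; by TPM the difference turned to 0.236) and higher in ectoderm (0.497, adjusted p = 0.000584) and endoderm (0.392, adjusted p = 0.0249). The endoderm call was lost without chromatin replicate 2 or 3 or cytoplasm replicate 1 or 2 (adjusted p = 0.062 to 0.0976), and the mesoderm difference was -0.365 (adjusted p = 0.0668). In endoderm both helicases were lower in cytoplasm than nucleus, with log2 differences of -0.796 for DDX39A (adjusted p = 6.52e-05; -0.089 without TMM factors, adjusted p = 0.554) and -0.625 for DDX39B (adjusted p = 0.00142; the difference turned to 0.01 by TPM and 0.081 without TMM factors). DDX39B overlaps 5 annotated genes, among them the read-through ATP6V1G2-DDX39B and the antisense DDX39B-AS1, so its counts are less certain.

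Isoforms of the helicases and of THOC1 that hold a whole intron also differed between fractions in some cell types. For DDX39B the table holds DDX39B-215 (ENST00000462256), annotated as retained_intron, in ectoderm, endoderm and mesoderm. In endoderm it took 18.2%, 18.1% and 16% of DDX39B counts in cytoplasm, 33.7%, 50.3% and 54.7% in nucleus, 60.5%, 53.2% and 60.3% in nucleoplasm and 75.4%, 79.5% and 76.8% on chromatin. The cytoplasm and chromatin libraries did not overlap any other fraction. It fell by 1.792 from nucleus to cytoplasm in endoderm (SE 0.158, adjusted p = 9.54e-06; share adjusted p = 0.000245), and the spliced DDX39B-202 differed by 0.187 (adjusted p = 0.438). From nucleoplasm to chromatin in endoderm DDX39B-202 fell by 1.053 (adjusted p = 0.00116) while DDX39B-215 differed by 0.268 (adjusted p = 0.226). After TMM scaling, a nearly level gene sum (0.044) thus covered isoforms with different values. In CPM the gene sum was higher on chromatin without overlap (means of 636.9 against 414.0 CPM). Leaving out TMM factors moved the median of all genes by 0.577 in this comparison. In mesoderm the share of DDX39B-215 was 24.0%, 23.4% and 21.2% in cytoplasm and 52.2%, 57.3% and 35.3% on chromatin, without overlap, with 44.1%, 30.1% and 40.9% in nucleus and 15% in the single nucleoplasm library. Its level differed by -0.279 between mesoderm cytoplasm and nucleus (adjusted p = 0.326), while its share passed limma-voom's diffSplice (adjusted p = 0.00341) and not diffSpliceDGE (adjusted p = 0.402). In ectoderm it was 20.7%, 21.2% and 19.9% in cytoplasm and 34.2%, 29% and 33.5% on chromatin, without overlap, and 14%, 9.58% and 15.6% in the libraries labelled nucleus. There its level was 0.53 higher in cytoplasm than nucleus (adjusted p = 0.0354), a call that was lost without any 1 of the libraries except nucleus replicate 3.

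**Figure D5:**
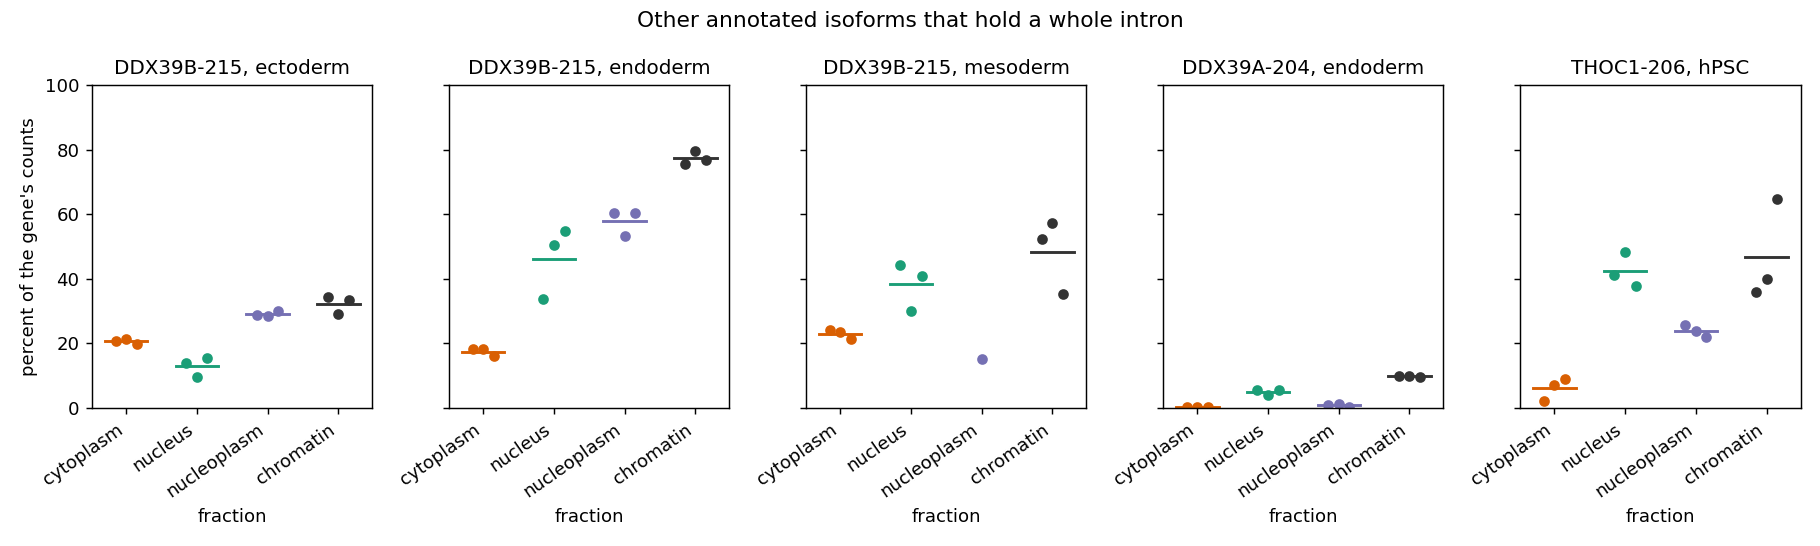
Percent of a gene's counts (vertical axis) on annotated intron-holding isoforms of DDX39B (ectoderm, endoderm, mesoderm), DDX39A (endoderm) and THOC1 (hPSC), by fraction; points are libraries and bars means of 3. DDX39B-215 in endoderm runs from 16% to 18.2% in cytoplasm to 75.4% to 79.5% on chromatin.

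DDX39A-204 (ENST00000586558), a short retained_intron isoform found in the endoderm table alone, was rarer. It took 0.398%, 0.322% and 0.405% of DDX39A counts in cytoplasm, 5.51%, 3.9% and 5.53% in nucleus, 1.0%, 1.16% and 0.412% in nucleoplasm and 9.96%, 9.85% and 9.52% on chromatin. The level fell by 4.246 from nucleus to cytoplasm (SE 0.429, adjusted p = 2.24e-05; share adjusted p = 0.0263) and rose by 4.686 from nucleoplasm to chromatin (SE 0.442, adjusted p = 3.24e-05; share adjusted p = 0.0571). The cytoplasm and nucleoplasm shares are of DDX39A sums of 95.81, 94.38 and 108.4 and of 34.87, 36.09 and 37.07 CPM. Few counts thus lay on the low side of both changes, and their size is uncertain. The share call in cytoplasm was lost without nucleus replicate 1 or 3 or any cytoplasm library (adjusted p = 0.0505 to 0.135). THOC1-206 (ENST00000579232), in hPSC alone, took 2.22%, 7.19% and 8.81% of THOC1 counts in cytoplasm, 41.1%, 48.2% and 37.6% in nucleus, 25.6%, 23.9% and 21.9% in nucleoplasm and 35.9%, 39.9% and 64.7% on chromatin. It fell by 2.029 from nucleus to cytoplasm (SE 0.401, adjusted p = 0.00252; share adjusted p = 0.0162), and the share call was lost without nucleus replicate 2 (adjusted p = 0.0651) or cytoplasm replicate 1 (0.0822) or 2 (0.06). The principal THOC1-201 rose by 1.592 in the same comparison (adjusted p = 0.0025).

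Counted over all member isoforms, the level calls were as follows. In hPSC 8 of 19 isoforms were higher in cytoplasm than nucleus and 2 lower, beside 19.6% and 20% of all transcripts tested. Both lower ones were the intron-holding NXF1-211 and THOC1-206. In ectoderm 5 of 28 were higher and 0 lower (background 7.03% and 6.62%), in endoderm 7 of 25 higher and 5 lower (19.3% and 22.9%), and in mesoderm 5 of 28 higher and 5 lower (15.3% and 16.8%). The endoderm falls included all 3 annotated intron-holding isoforms of that table. From nucleoplasm to chromatin, 1 of 19 was higher and 0 lower in hPSC (6.08% and 3.67%), 2 of 28 higher and 2 lower in ectoderm (4.51% and 9.37%), and 6 of 25 higher and 4 lower in endoderm (11.8% and 18.1%). The share calls by diffSpliceDGE were 2 in hPSC (2.62% of transcripts tested), 0 in ectoderm (0.373%), 5 in endoderm (4.57%) and 0 in mesoderm (2.79%) for cytoplasm against nucleus, and 0 in hPSC (0.43%), 1 in ectoderm (0.682%) and 1 in endoderm (2.91%) for chromatin against nucleoplasm. At an unadjusted p under 0.05 the shares that gave 0 calls had 3 isoforms in ectoderm and 4 in mesoderm for cytoplasm against nucleus, and 2 in hPSC for chromatin against nucleoplasm; limma-voom's diffSplice called 0, 11 and 2 there, beside 1.4%, 16.1% and 2.77% of all transcripts it tested. The 0 lower isoforms in ectoderm had 3 at an unadjusted p under 0.05, and those of hPSC chromatin had 1. The class of intron-holding isoforms was formed after the values were seen and is described by counts alone.

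The THO subunits fell into patterns by gene. The genes are THOC1 (chr18:214520-268050), THOC2 (chrX:123600561-123733056), THOC3 (chr5:175917873-176034680) and THOC5 (chr22:29505879-29555216) on the minus strand and THOC6 (chr16:3024027-3027755) on the plus strand. THOC3, a WD-repeat subunit, held 86.08, 76.19 and 78.68 CPM in hPSC cytoplasm and 51.33, 44.35 and 50.66 CPM on hPSC chromatin, and 83.22, 86.05 and 83.61 against 27.85, 22.91 and 27.83 CPM in endoderm. It was lower on chromatin than in cytoplasm in hPSC, ectoderm, endoderm and mesoderm, with log2 differences of -0.864 (adjusted p = 7.61e-05), -1.071 (1.59e-05), -1.524 (9.84e-07) and -1.375 (8.91e-05), though by TPM the hPSC difference turned to 0.02. THOC6, also a WD-repeat subunit, differed by -0.758 (5.66e-05), -0.872 (3.25e-05), -0.803 (0.000141) and -1.216 (0.00104) in that order, and by TPM the hPSC and ectoderm differences turned to 0.132 and 0.254. THOC3 lies in duplicated sequence, so its reads may be shared with near-identical copies, and THOC6 overlaps HCFC1R1 and BICDL2 on the opposite strand. THOC5 overlaps AC005529.1 and NIPSNAP1 on its own strand. For THOC5 chromatin and cytoplasm differed by 0.003 in endoderm, 0.016 in mesoderm and 0.033 in ectoderm (SE 0.122 to 0.173), and by -0.402 in hPSC (adjusted p = 0.0156), a call lost without chromatin replicate 2 or cytoplasm replicate 2 or 3 and turned to 0.474 by TPM. THOC5 was higher on endoderm chromatin than in nucleoplasm (0.872, adjusted p = 0.000451). Cytoplasm against nucleus, it was higher in hPSC (0.575, adjusted p = 0.00162; by TPM 0.173, adjusted p = 0.471) and lower in ectoderm (-0.496, adjusted p = 0.00428; without TMM factors -0.152, adjusted p = 0.312).

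THOC2, the largest subunit and scaffold of THO, and its partner THOC1 were higher on chromatin than in cytoplasm in endoderm and mesoderm, and THOC1 also in ectoderm. THOC1 stood at 104.6, 105.3 and 103.1 CPM on endoderm chromatin and 35.13, 39.22 and 33.66 CPM in endoderm cytoplasm (log2 difference 1.694, adjusted p = 0.000164), with 1.321 in ectoderm (adjusted p = 0.00311), 1.728 in mesoderm (adjusted p = 1.96e-05) and -0.096 in hPSC (adjusted p = 0.626). THOC2 rose by 1.506 in endoderm (adjusted p = 0.000187) and 1.135 in mesoderm (adjusted p = 0.000231); it differed by -0.018 in ectoderm (adjusted p = 0.964). In hPSC it differed by 0.533 (adjusted p = 0.268), and by 0.967 without chromatin replicate 3 (adjusted p = 0.000257), whose 6.547 CPM stood far below 31.14 and 33.52 CPM. The same library that was low for THOC2 was high for NXF1-211. In ectoderm nucleus THOC1 stood at 21.97, 4.132 and 17.56 CPM and THOC2 at 25.71, 5.352 and 19.77 CPM, so replicate 2 was low for both. In endoderm nucleus THOC1 stood at 4.499, 26.4 and 17.12 CPM and THOC2 at 2.753, 8.631 and 7.49 CPM, with replicate 1 low for both. Between nucleus and cytoplasm, THOC1 and THOC2 were lower in mesoderm cytoplasm (-1.113, adjusted p = 0.000317, and -0.861, adjusted p = 0.00154) and higher in ectoderm cytoplasm (1.298, adjusted p = 0.00627, and 1.83, adjusted p = 0.000598). THOC1 was also higher in hPSC cytoplasm (0.729, adjusted p = 0.00169; by TPM 0.363, adjusted p = 0.087) and THOC2 in endoderm cytoplasm (1.29, adjusted p = 0.00125), while THOC2 in hPSC (0.56, adjusted p = 0.257) and THOC1 in endoderm (0.566, adjusted p = 0.118) were not called. In mesoderm the groups of both genes did not overlap (27.76 to 30.22 against 64.26 to 70.53 CPM for THOC1, and 45.53 to 53.4 against 90.96 to 99.67 CPM for THOC2). THOC1 overlaps USP14 and THOC2 overlaps FERP1, each on the opposite strand.

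Gene sums of the members, counted per comparison, were read against the share of all genes called. For cytoplasm against nucleus, 8 of 10 members were higher and 0 lower in hPSC (35.1% and 30.4% of all genes), 2 higher and 4 lower in ectoderm (27.3% and 26.6%), 3 and 3 in endoderm (34.3% and 35.5%) and 4 and 3 in mesoderm (31.9% and 31.5%). The hPSC members not called were NXF1 and THOC2, and the median over members was 0.716 against 0.097 over all genes. By TPM, 3 hPSC members were called and DDX39A turned to -0.031. For chromatin against nucleoplasm, 2 were higher and 0 lower in hPSC (17.2% and 13.4%), 3 and 0 in ectoderm (18.5% and 25.6%) and 5 and 1 in endoderm (22.9% and 30.6%); NXF1 and DDX39A were the pair called in all 3 cell types. Where 0 were lower by edgeR, 0 in hPSC cytoplasm, 1 in hPSC chromatin and 1 in ectoderm chromatin were lower at an unadjusted p under 0.05. For chromatin against cytoplasm, 1 was higher and 6 lower in hPSC (35.2% and 28.3%), 4 and 4 in ectoderm (29.1% and 31.8%), 5 and 4 in endoderm (37.7% and 35.3%) and 4 and 4 in mesoderm (33.9% and 32.5%). NXF1 was among the higher and NXT1, ALYREF, THOC3 and THOC6 among the lower in every cell type by counts. By TPM, ALYREF, THOC3 and THOC6 in hPSC and NXT1 and THOC6 in ectoderm turned sign. Relative to the median of all genes by TPM, they stayed lower, by -0.602, -0.691 and -0.579 in hPSC and -0.38 and -0.473 in ectoderm, in that order. Leaving out TMM factors moved the median of all genes by -0.339 to 0.702, and TPM by -0.821 to 0.834, on the log2 scale, depending on the comparison, so all changes are relative to the bulk of genes.

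Of 43 other export genes (THOC7, further adaptors, cap-binding and TREX-2 proteins, pore proteins and exon junction factors), 42 were tested in hPSC, ectoderm and mesoderm and 41 in endoderm. In cytoplasm against nucleus 25 were higher and 9 lower in hPSC, 20 and 10 in ectoderm, 22 and 7 in endoderm and 19 and 14 in mesoderm, beside 35.1% and 30.4%, 27.3% and 26.6%, 34.3% and 35.5%, and 31.9% and 31.5% of all genes. For chromatin against nucleoplasm 4 were higher and 18 lower in hPSC (17.2% and 13.4% of all genes), 8 and 20 in ectoderm (18.5% and 25.6%) and 9 and 19 in endoderm (22.9% and 30.6%). On chromatin against cytoplasm 11 were higher and 21 lower in hPSC (35.2% and 28.3%), 9 and 23 in ectoderm (29.1% and 31.8%), 7 and 21 in endoderm (37.7% and 35.3%) and 14 and 21 in mesoderm (33.9% and 32.5%). LENG8, a TREX-2 related factor, had the largest called rise on chromatin in each cell type: 2.078 in hPSC (644.6 against 137.8 CPM, adjusted p = 2.58e-06), 1.471 in ectoderm (1697 against 489.3 CPM, adjusted p = 1.52e-06), 3.767 in endoderm (1127 against 92.42 CPM, adjusted p = 3.8e-10) and 2.126 in mesoderm (932.8 against 190.4 CPM, adjusted p = 0.000175). MCM3AP, the TREX-2 scaffold, was lower in cytoplasm than nucleus in endoderm (-1.566, adjusted p = 2.16e-07) and mesoderm (-1.215, adjusted p = 0.000254). The small TREX-2 and proteasome subunit SEM1 was lower on chromatin than in cytoplasm in hPSC (-2.375, adjusted p = 3.42e-05), ectoderm (-2.833, adjusted p = 3.34e-07) and mesoderm (-2.976, adjusted p = 3.14e-05). NXT2, a paralog of NXT1, was higher in mesoderm cytoplasm than nucleus by 4.111 (16.49 against 1.009 CPM, adjusted p = 2.3e-06), as was NXT1 itself by 2.021 (adjusted p = 4.29e-05).

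Between cell types each table rests on its own assembly, so the gene model changes with the cell type. For 7 members the model's counts per TPM, relative to NXF1-201 of the same library, were close across tables: NXT1 had medians of 0.378 to 0.383, DDX39A 0.591 to 0.601, THOC6 0.554 to 0.561, THOC3 0.644 to 0.717, THOC5 1.14 to 1.2 and NXF1 1.24 to 1.4, while ALYREF stood at 0.3 in endoderm and 0.396 to 0.409 elsewhere. For THOC2 the medians were 0.624 in hPSC, 1.84 in endoderm, 2.66 in mesoderm and 3.26 in ectoderm; the hPSC table holds 2 THOC2 isoforms, neither matched to a reference transcript, and the ectoderm table holds 11. For THOC1 they were 0.934, 1.17, 1.32 and 2.04, and for DDX39B 0.706 in hPSC and 0.863 to 1.1 elsewhere. A longer model collects more reads, so counts of these 3 genes are not comparable between tables. THOC2 differed between counts and TPM. By counts it was higher than in hPSC cytoplasm by 2.155 in ectoderm (adjusted p = 4.6e-08 by edgeR), 1.66 in mesoderm (1.38e-06) and 0.501 in endoderm (0.0287). Without hPSC cytoplasm replicate 1 the endoderm value was 0.265 (adjusted p = 0.161). By TPM the mesoderm and endoderm values turned to -0.013 and -0.579. On chromatin 1.892 in ectoderm and 1.542 in endoderm turned to -0.026 and -0.03 by TPM. The mean TPM stayed above that of hPSC in ectoderm cytoplasm (12.94 against 10.73) and on mesoderm chromatin (46.61 against 28.47), but the libraries overlapped in both. They held 15.53, 9.67 and 13.63 against 8.21, 11.15 and 12.83 TPM in cytoplasm. On chromatin they held 45.45, 58.88 and 35.49 against 28.94, 45.86 and 10.62 TPM. The part of model length in these values was not tested.

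Among members with like models, DDX39A fell most. It stood at 134.6, 112.3 and 113.8 CPM in hPSC cytoplasm, 34.14, 37.45 and 36.0 CPM in ectoderm cytoplasm, 48.12, 48.94 and 42.2 CPM in mesoderm cytoplasm and 95.81, 94.38 and 108.4 CPM in endoderm cytoplasm. All 3 differentiated cell types lay below hPSC without overlap, by log2 differences of -1.821 (SE 0.116, adjusted p = 2.12e-09), -1.426 (SE 0.115, adjusted p = 5.05e-08) and -0.441 (SE 0.112, adjusted p = 0.00362) for ectoderm, mesoderm and endoderm. On chromatin it was not called in any of the 3 (-0.283, 0.342 and -0.37 for ectoderm, endoderm and mesoderm, with adjusted p = 0.325, 0.239 and 0.218). THOC5 fell in ectoderm cytoplasm (-1.086, adjusted p = 1.91e-06) and mesoderm cytoplasm (-0.838, adjusted p = 4.08e-05) and rose in endoderm (0.452, adjusted p = 0.0066; 0.263 without hPSC cytoplasm replicate 1, adjusted p = 0.0404). THOC6 fell by 1.248 in ectoderm cytoplasm (adjusted p = 2.09e-08), with log2 differences of -0.332 and -0.324 in endoderm and mesoderm (adjusted p = 0.00842 and 0.00785). ALYREF fell in ectoderm in cytoplasm (-1.051, adjusted p = 4.75e-06) and on chromatin (-1.45, adjusted p = 8.61e-06), and on the chromatin of endoderm (-1.812, adjusted p = 2.07e-06), where its model has fewer counts per TPM, and of mesoderm (-1.004, adjusted p = 0.000328). In mesoderm cytoplasm ALYREF was lower by counts (-0.343, adjusted p = 0.0342), a call lost without hPSC cytoplasm replicate 2 (adjusted p = 0.139) or mesoderm cytoplasm replicate 1 (adjusted p = 0.116), and in endoderm cytoplasm it was not called (-0.293, adjusted p = 0.0738; 0.415 by TPM). NXF1 fell in ectoderm (-0.283, adjusted p = 0.0162; 0.0569 without ectoderm cytoplasm replicate 1) and mesoderm cytoplasm (-0.437, adjusted p = 0.00113), and rose on endoderm chromatin (0.936, adjusted p = 0.0014).

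In cytoplasm, 1 member was higher and 8 lower in ectoderm than hPSC (38% and 37.9% of all genes called), 2 and 3 in endoderm (29.5% and 28.6%) and 1 and 8 in mesoderm (34.6% and 33.4%). The 1 higher gene in ectoderm and mesoderm was THOC2. The lower ones included DDX39B in ectoderm, endoderm and mesoderm and THOC1 in mesoderm. The models of THOC2, DDX39B and THOC1 differ between tables, so these counts of higher and lower members are not all of comparable genes. On chromatin 3 were higher and 3 lower in ectoderm (30.5% and 32.5%), 5 and 3 in endoderm (28.9% and 33%) and 2 and 4 in mesoderm (27.2% and 27.5%). All 3 higher ones in ectoderm (DDX39B, THOC1 and THOC2), 3 of 5 in endoderm (the same genes) and both in mesoderm (THOC1 and THOC2) are genes whose models differ between tables. These comparisons share the hPSC libraries. The cytoplasm against nucleus change itself differed from that of hPSC for 8 members in ectoderm (1 more positive and 7 more negative; 51.9% of all genes in either direction), 3 in endoderm, all more negative (38%), and 6 in mesoderm (2 and 4; 25.6%). For ectoderm this rests on the libraries labelled nucleus that held cytoplasmic markers.

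The genes whose profile over the 16 group means was most like that of NXF1, by Pearson's r of log2(CPM + 1) among 9167 genes, were E4F1 (0.969), MKS1 (0.959), PHKA2 (0.951), AMPD2 (0.95) and SNAPC4 (0.949), none of them a member. All 5 had their highest mean on endoderm chromatin, as NXF1 had. Among the members, r with NXF1 was 0.699 for DDX39A, 0.608 for THOC1, 0.437 for THOC5, 0.39 for DDX39B, 0.192 for THOC2, -0.029 for THOC6, -0.38 for THOC3 and -0.428 for ALYREF. The points share 1 cell line, assemblies and library scaling, so these values are descriptions.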

How the data were processed

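Counts and TPM values per assembled transcript were used from 46 libraries. Per the submitters' processing notes, STAR and RSEM were used with hg38; their versions, roles and settings are not given in the sources used here. The deposited counts are whole numbers per transcript and library, and may be rounded estimates. The deposited TPM (scaled to transcript length and library) were used for levels between genes and as an alternative. Transcripts with a member's gene name were kept as isoforms and summed to genes. 1 column of per-sample values, in 2 tables, matched no sample and was not used. CPM are counts scaled to the library's full total. Library totals ran from 4990408 to 21298678 counts. Nothing in the labels says that replicates came from separate cultures, so p-values measure only the spread between these libraries, which may be technical.

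Tests were fitted on whole tables with edgeR 4.0.16 in R 4.3.3 (quasi-likelihood F test, two-sided, after TMM scaling and filterByExpr at its minimum count of 10), with Benjamini-Hochberg adjustment over all features tested and a threshold of 0.05. Comparisons of fractions used 1 fit per cell type over its libraries, and comparisons of cell types used the 10699 genes named in all 4 tables. An isoform's share of its gene was tested with edgeR's diffSpliceDGE and, chosen after seeing the data, limma-voom's diffSplice (limma 3.58.1). On simulated data for hPSC cytoplasm against nucleus, the first recovered 16.4% of 200 isoforms with a 2-fold share change and 63.8% with a 4-fold change among 20635 and 20625 isoforms, the second 37.9% and 98%. Of the calls at these folds, 13.4% and 8.03% were false for the first and 5.41% and 4.99% for the second. Calls of diffSpliceDGE were thus false more often than the threshold of 0.05 in this simulation. Among 14000 and 13999 gene sums, 80.5% and 100% of 200 changed genes were recovered at these folds, and 4.17% and 3.85% of calls were false. The simulation gave every feature the same dispersion, which the data need not have. Alternatives were other scalings, no filter, DESeq2 1.42.0, limma-trend on log2(TPM + 1), a replicate block, a 2-fold minimum, the combined ectoderm assembly, and leaving out each library in turn. All 10 members and all NXF1 isoforms are named. Of other isoforms, called ones with a mean of at least 5 CPM in a fraction were eligible, at most 2 per member, cell type and direction. The 2 largest called rises and falls of the pathway list were eligible in each comparison. Members, lists and rules were chosen with earlier results of these data known. Exon structures are from GENCODE v29 on GRCh38, matched by transcript identifier; the transcript versions in the files are newer.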

Additional observations from a re-analysis of the deposited data

Results flagged for a closer look

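The change from nucleus to cytoplasm differed from that of hPSC for 17 combinations of member and cell type, by an interaction term fitted with edgeR's quasi-likelihood test with Benjamini-Hochberg adjustment over all genes. Values are log2 changes in the named cell type minus those in hPSC, which all 3 comparisons share.

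NXF1 was lower in cytoplasm relative to nucleus than in hPSC by -1.198 in endoderm (adjusted p = 4.86e-05) and -0.655 in mesoderm (adjusted p = 0.00951). Its values were 57.25 to 63.58 CPM in hPSC nucleus and 58.41 to 66.15 CPM in hPSC cytoplasm, against 78.63 to 109.4 and 59.54 to 64.92 CPM in endoderm. DDX39A differed by -0.676 in ectoderm (adjusted p = 0.00209), -1.11 in endoderm (adjusted p = 6.38e-05) and -0.76 in mesoderm (adjusted p = 0.00245). DDX39B differed by -0.639 in ectoderm (adjusted p = 0.00236) and -1.245 in endoderm (adjusted p = 1.84e-05).

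In ectoderm, where the libraries labelled nucleus held cytoplasmic marker RNA, the differences were -1.374 for NXT1 (adjusted p = 0.000644), -1.099 for ALYREF (0.000235), -0.988 for THOC3 (0.00035), -0.881 for THOC5 (0.0022), -0.854 for THOC6 (0.000199) and 1.433 for THOC2 (0.0126). The part of the markers in these values was not tested.

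In mesoderm NXT1 differed by 1.127 (adjusted p = 0.012), THOC1 by -1.778 (0.0146), THOC2 by -1.365 (0.0307) and THOC6 by 0.506 (0.0248; by TPM the sign turned, to -0.292). The THOC2 call was lost without any 1 of 7 libraries and the THOC6 call without any 1 of 3 (adjusted p = 0.0537 to 0.09 and 0.0576 to 0.0732). Mitochondrial transcripts were 5.84% to 7.46% of mesoderm cytoplasm and 1.11% to 1.36% of mesoderm nucleus, the reverse of the order in hPSC, and their part in these values was not tested.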

How the results depend on the processing

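The depth of 522 to 2192 NXF1 counts per library limits the isoform shares less than the spread between libraries does, while NXT1, at a few CPM, and rare isoforms are the least certain. Whether the replicate numbers pair the samples was not settled: the lowest correlation of same-numbered deviations ran from -0.353 to 0.055 over the comparisons. Every sample correlated best with its own number in 2 comparisons, ectoderm chromatin against nucleoplasm and endoderm chromatin against cytoplasm (6 of 6), a hint from the data only. With the replicate block, all 34 counts of calls stayed within 1.5 times; of single values 330 kept their call, 7 lost it and 1 gained it. Upper-quartile factors and no filter on low counts also kept all 34 counts within 1.5 times.

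Counts of members called moved as follows; the cause was not tested. For gene sums in cytoplasm against nucleus, hPSC had 8 calls, with 3 by limma-trend on log2(TPM + 1) and 2 when a 2-fold change was required. Ectoderm had 6, with 2 without TMM factors, 2 by TPM and 2 at 2-fold, and endoderm had 6, with 3 at 2-fold. For chromatin against nucleoplasm, hPSC had 2, with 8 by TPM and 0 at 2-fold, ectoderm had 3, with 8 by TPM and 1 at 2-fold, and endoderm had 6, with 3 at 2-fold. For chromatin against cytoplasm, hPSC had 7, with 0 at 2-fold, and ectoderm had 8, with 4 at 2-fold. Against hPSC in cytoplasm, ectoderm had 9, with 5 by TPM and 5 at 2-fold, endoderm had 5, with 3 without TMM factors, 3 by TPM and 0 at 2-fold, and mesoderm had 9, with 5 by TPM and 2 at 2-fold. On chromatin, ectoderm had 6, with 3 by TPM, endoderm had 8, with 5 by TPM and 3 at 2-fold, and mesoderm had 6, with 2 by TPM and 3 at 2-fold. For the difference of the cytoplasm change from hPSC, ectoderm had 8, with 2 by TPM and 3 at 2-fold, endoderm had 3, with 5 by DESeq2, and mesoderm had 6, with 3 at 2-fold.

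For isoform levels, hPSC chromatin against nucleoplasm had 1 call, with 3 without TMM factors, 2 by DESeq2 and 9 by TPM. Ectoderm had 5 in cytoplasm against nucleus, with 11 by DESeq2, and 4 in chromatin against nucleoplasm, with 7 by DESeq2 and 16 by TPM. For isoform shares in cytoplasm against nucleus, limma-voom's diffSplice called 4 in hPSC, 9 in endoderm and 11 in mesoderm, where diffSpliceDGE called 2, 5 and 0; limma-voom called 12.8%, 15.2% and 16.1% of all transcripts there, beside 2.62%, 4.57% and 2.79%. For chromatin against nucleoplasm it called 2 in hPSC, 5 in ectoderm and 8 in endoderm, against 0, 1 and 1, with 2.77%, 8.45% and 12.5% of all transcripts, beside 0.43%, 0.682% and 2.91%.

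Leaving out each library in turn kept 198 counts within 1.5 times and moved 24. The ranges were 1 to 2 for hPSC shares in cytoplasm against nucleus; 0 to 3 gene sums and 0 to 1 isoforms for hPSC chromatin against nucleoplasm; 3 to 7 gene sums and 3 to 6 isoforms for ectoderm cytoplasm against nucleus; 2 to 3 isoforms for ectoderm chromatin against nucleoplasm; 0 to 0 shares for endoderm chromatin against nucleoplasm; 3 to 6 gene sums for endoderm against hPSC in cytoplasm; and 3 to 6 for the endoderm difference of the cytoplasm change. Of single values, 2067 kept their call, 115 lost it, 26 gained it and 0 turned sign. Besides the values in the report, THOC6 on mesoderm chromatin against hPSC moved from -0.582 to -0.917 without mesoderm chromatin replicate 1 (adjusted p = 0.00233) and -0.323 without replicate 3 (adjusted p = 0.132), and NXT1 in ectoderm cytoplasm against nucleus from -0.617 to -0.322 without ectoderm nucleus replicate 2 (adjusted p = 0.206). On the combined ectoderm assembly 3 counts and 28 single values kept their call and 2 lost it.

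By TPM, 39 single values turned sign, 19 of which had passed the threshold; relative to the median of all genes, 21 of 39 kept theirs. In hPSC cytoplasm against nucleus, DDX39A turned to -0.031 as a gene and as isoform. In hPSC chromatin against nucleoplasm the values were 0.56 for ALYREF and for ALYREF-202, 0.471 for DDX39B, 0.522 for THOC5, 0.582 for THOC3-201, 0.475 for DDX39B-202 and 0.487 for NXF1-201. In hPSC chromatin against cytoplasm they were 0.109 for ALYREF, 0.8 for DDX39A, 0.236 for DDX39B, 0.684 for THOC1, 0.02 for THOC3, 0.474 for THOC5 and 0.132 for THOC6. In ectoderm they were 0.658 for ALYREF, 0.655 for THOC6, 0.764 for NXF1-201 and 0.24 for DDX39B-202 (chromatin against nucleoplasm) and 0.347 for NXT1, 0.861 for THOC2 and 0.254 for THOC6 (chromatin against cytoplasm). In endoderm they were 0.01 for DDX39B (cytoplasm against nucleus) and 0.649 for NXF1-201 (chromatin against nucleoplasm). In mesoderm cytoplasm against nucleus they were -0.751 for DDX39B, -0.057 for THOC3, -0.715 for THOC5, -0.167 for THOC3-201 and -1.241 for NXF1-201. Against hPSC they were 0.415 for ALYREF and -0.579 for THOC2 in endoderm cytoplasm, -0.013 for THOC2 in mesoderm cytoplasm, -0.026 for THOC2 on ectoderm chromatin, and -0.397 for DDX39B and -0.03 for THOC2 on endoderm chromatin. For the difference of the cytoplasm change they were 0.663 for THOC3 in endoderm, and -0.735 for THOC3 and -0.292 for THOC6 in mesoderm. Without TMM factors 4 turned: DDX39B to 0.081 and THOC5 to 0.692 in endoderm cytoplasm against nucleus, NXF1-201 to 0.627 in endoderm chromatin against nucleoplasm, and THOC3 to 0.517 in the endoderm difference. The share of higher among all called genes moved by over 10 points in 8 comparisons without TMM factors: from 56.2% to 86.5% in hPSC chromatin against nucleoplasm, 50.7% to 76.4%, 41.9% to 71.0% and 47.8% to 64.9% in ectoderm (cytoplasm against nucleus, chromatin against nucleoplasm and against cytoplasm), 49.2% to 71.5% and 42.8% to 73.8% in endoderm (the first and second of these), and 51.9% to 90.0% and 73.2% to 36.8% for the endoderm and mesoderm difference of the cytoplasm change. Upper-quartile factors moved the endoderm difference to 69.0%, and TPM moved 18 comparisons, to between 5.26% and 96.7%.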
